A study of Mus musculus with 16 samples.

Results

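The early response of macrophages to lipopolysaccharide (LPS) was described with both genotypes of the study pooled. The comparison used 8 of the 16 arrays, those titled KO_06 and WT_06 (4 arrays at 6 h) against those titled KO_00 and WT_00 (4 arrays at 0 h), with genotype and replicate number as additive terms. The cells were grown from total bone marrow of male C57BL/6Jax mice for 9 days in medium with 10 ng/mL M-CSF, and the adherent cells were used. The groups, of 2 arrays each, were miR-155 KO cells after 6 h in 100 ng/mL LPS, WT cells after 6 h in 100 ng/mL LPS, miR-155 KO cells lysed unstimulated on day 9, and WT cells lysed unstimulated on day 9. All 8 samples share the strain, the sex and the culture in M-CSF, and the labels name no other allele or agent. There was no unstimulated sample kept for a further 6 h, so LPS and the extra time in culture cannot be told apart. Whether replicates are separate mice or cultures is not in the labels, so p-values measure the spread between these samples, which may be technical.

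LPS comes from the cell wall of Gram-negative bacteria and is bound by Cd14 and by the receptor Tlr4 with its partner Ly96. Tlr4 signals through the adaptor Myd88, which leads to the transcription factor NF-kB and to MAP kinases, and through the adaptor Ticam1, which leads to Irf3 and to interferon beta. Secreted interferon then acts back on the same cells through Stat2 and Irf9, so that a first wave of inflammatory genes is joined by a wave of antiviral genes. M-CSF keeps bone-marrow macrophages alive and dividing, and LPS is known to stop their proliferation.

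Levels are given as the log2 of the probe's intensity relative to the 75th percentile of its array, and levels of different genes, read by different probes, are not compared with each other. A change is the difference in that level at 6 h minus 0 h, over 4 arrays a side, and values after ± are its standard error. A gene was called, and is said to have risen or fallen, when limma's moderated test gave an adjusted p under 0.05 over all 17417 genes tested. Of these genes 10667 were called (61.2%), 5277 higher at 6 h (30.3%) and 5390 lower (30.9%). Called genes at least 4-fold higher numbered 1503 (8.63%), and those at least 4-fold lower 1345 (7.72%). For 8098 genes (46.5%) the 4 arrays at 6 h did not overlap the 4 at 0 h. Since calls are this frequent, a count within a gene list is read against these shares. The lists and families were chosen with earlier results of these data known, so such counts are descriptions. A gene was tested when its probe was well above background on both arrays of at least 1 group. Genes at background at one time were thus tested only for their level at the other, which fixes their direction. The median change over all genes was 0.04, and it was -0.14 after quantile normalization, 0.15 after scaling to the median and 0.20 after normexp background correction, so small changes depend on the scaling. Where a probe was well above background on only some of the 4 arrays of a time, its fitted change rests in part on values at background, and 1 of 4 is said beside the value. With 2 or 3 of 4 these were Ccl17, Ifi205, Il1a, Lpar1, Ptgs2, Slamf1, Slc7a11 and Slfn4 at 0 h, and Bhlhe40, Cd163, Cenpf, Cnr2, Kif23 and Rrm2 at 6 h. Normexp gave 6388 genes higher and 4315 lower, a share of 59.7% higher among the called genes, against 49.5% with the scaling used here.

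**Figure D1:**
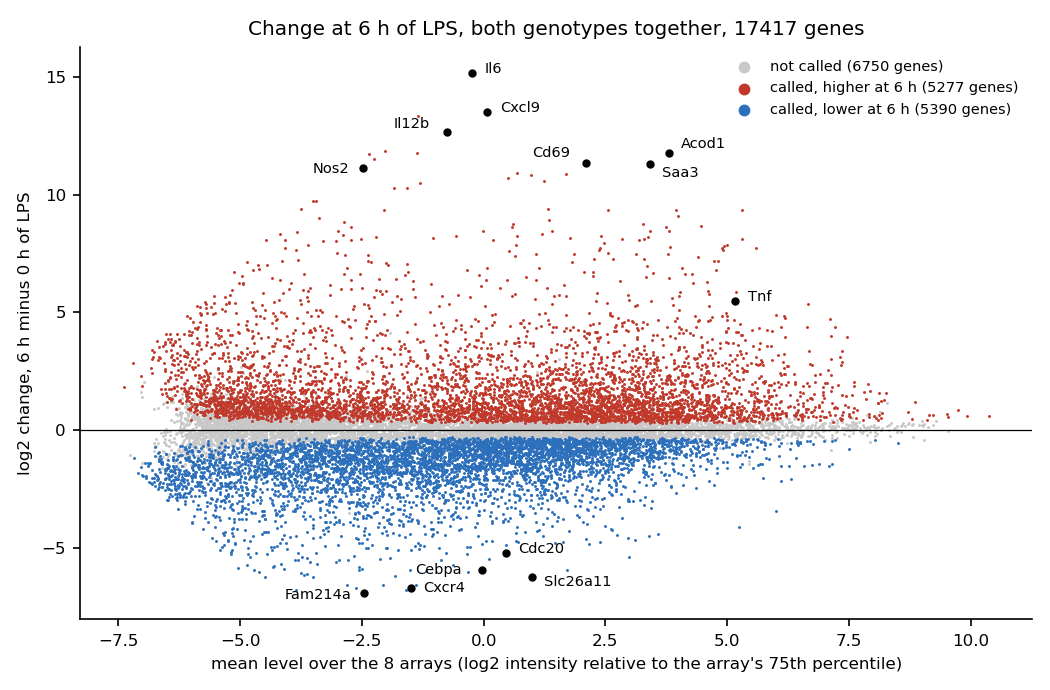
Change at 6 h of LPS against mean level for 17417 genes, both axes on the log2 scale. Red points are the 5277 genes called higher at 6 h and blue points the 5390 called lower, with 13 genes named; Il6 is the highest point at 15.18 and Fam214a the lowest at -6.93.

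On the 8 arrays the 75th percentile of the probe signal lay between 270.8 and 729.9 scanner units, and the scanner software placed 56.8% to 67.6% of probes well above background. No spot was saturated (0). Mir155 and its host gene have 0 probes here, which leaves the KO label unchecked. Time in LPS was the first principal component, with 71.0% of the variance, and the second, with 18.9%, separated the arrays numbered 1 from those numbered 2, which the file headers place in different scan sessions. In the rest of the text these are called replicates 1 and replicates 2. The cells carried the macrophage label's markers: all 20 macrophage markers tested were detected, with median levels over the list of 7.54 at 6 h and 6.44 at 0 h. Their median change was 0.794, and 0.185 after quantile normalization, so its size depends on the scaling. Of markers of other cell types, 13 of 16 for neutrophils, 7 of 13 for B cells, 6 of 16 for T and NK cells, 7 of 14 for erythroid cells and megakaryocytes and 3 of 10 for mast cells were detected in at least 1 group, and their changes are given further on. Those not detected in any group included Ly6g and Elane of neutrophils, Cd79a, Ms4a1 and Pax5 of B cells, Cd8a and Prf1 of T and NK cells, Klf1 of erythroid cells, and Kit and Cpa3 of mast cells. Samples were bulk RNA, in which fewer cells of a type and less RNA per cell cannot be told apart.

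The largest rises were in secreted mediators and in enzymes that make small effector molecules. Il6, which encodes the cytokine interleukin 6, had the largest fitted change. Its level was 7.60 and 7.59 in KO cells and 7.25 and 6.98 in WT cells at 6 h, against -7.80 and -7.47 in KO cells and -8.33 and -7.72 in WT cells at 0 h. The 0 h values were not well above background on any of the 4 arrays, and so only a lower bound can be given for the fold. The bound divides the mean at 6 h by a floor at 0 h, which on each array is the dimmest signal that still counted as well above background, or the probe's own signal if brighter. Il6 was in this way at least 13734-fold higher (adjusted p = 1.05e-06). Il12b, the p40 subunit shared by interleukins 12 and 23, was at least 4018-fold higher (adjusted p = 5.22e-06), with means of 5.60 at 6 h and -7.08 at 0 h. For Cxcl11, a chemokine induced by interferon, the rise was at least 3362-fold, with means of 5.32 at 6 h and -8.02 at 0 h.

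Cxcl9, a chemokine that draws T cells, stood at 6.45 and 6.80 in KO cells and 6.77 and 7.29 in WT cells at 6 h, against -6.37 and -8.58 in KO cells and -5.36 and -6.42 in WT cells at 0 h. It rose by 13.51 ± 0.52 (adjusted p = 7.76e-06), and its probe was well above background on 4 arrays at 6 h and on 1 at 0 h. Acod1, listed as Irg1 on the array, makes itaconate from a Krebs cycle intermediate. Its level was 10.01 and 9.43 in KO cells and 10.13 and 9.23 in WT cells at 6 h, against -0.90 and -3.52 in KO cells and -0.56 and -3.42 in WT cells at 0 h. The 4 arrays at 6 h lay far above all 4 at 0 h, and the 0 h level was lower in replicates 2 than in replicates 1 in both genotypes. Acod1 rose by 11.80 ± 0.42 (adjusted p = 6.58e-06), by 10.81 in replicates 1 and 12.80 in replicates 2. Nos2, the inducible nitric oxide synthase, was at least 709.9-fold higher (adjusted p = 1.59e-06). Edn1, the precursor of the vasoconstrictor endothelin, rose by 11.79 ± 0.28 and was well above background on 1 of the 4 arrays at 0 h.

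Cd69, an early activation antigen of leukocytes, had one of the 5 smallest p-values among the rises. It stood at 7.40 and 8.05 in KO cells and 7.47 and 8.21 in WT cells at 6 h, against -4.05 and -2.90 in KO cells and -3.93 and -3.46 in WT cells at 0 h, and it rose by 11.36 ± 0.16 (adjusted p = 1.59e-06). Also among the 15 largest rises were Saa3, an acute-phase apolipoprotein, which rose by 11.31 ± 0.53, and Cfb, a protease of the alternative complement pathway, which rose by 10.85 ± 0.53. The serine protease inhibitor Serpina3g rose by 10.88 ± 0.18, and Serpina3f, of the same family, was at least 1257-fold higher. The guanylate-binding protein Gbp4 was at least 957-fold higher and Shisa3 at least 959-fold. The interferon-inducible gene Ifi205 rose by 10.92 ± 0.52. Lhx2, a LIM homeobox transcription factor, rose by 8.76 ± 0.13, and Slco3a1, an organic anion transporter, by 8.13 ± 0.12; both were among the 5 smallest p-values (adjusted p = 1.59e-06 for Lhx2 and 1.59e-06 for Slco3a1).

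**Figure D2:**
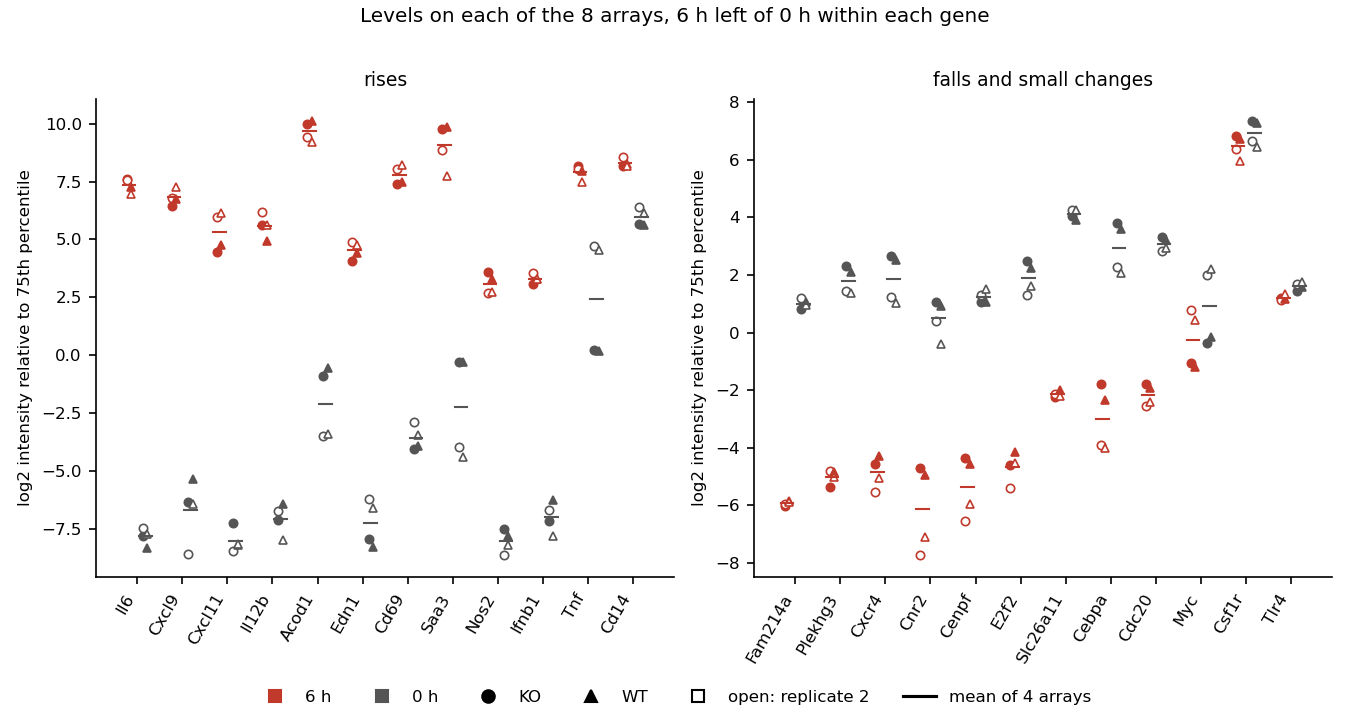
Levels of 24 genes on each of the 8 arrays, as log2 intensity relative to the array's 75th percentile, with the 6 h arrays (red) left of the 0 h arrays (grey) within each gene. Circles are KO and triangles WT, filled symbols replicates 1 and open symbols replicates 2, and bars are means of 4 arrays; at 0 h Tnf separates by replicate number, with 0.21 and 0.16 in replicates 1 and 4.71 and 4.56 in replicates 2.

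Of 38 cytokines and growth factors tested, 27 rose and 6 fell, with a median change of 4.38 (2.81 after normexp). Counted with the genes that have only a bound set at that bound, the median was 4.31. Ifnb1, the interferon of the Ticam1 branch, was at least 801-fold higher (adjusted p = 6.05e-06), with means of 3.31 ± 0.19 at 6 h and -6.99 ± 0.67 at 0 h (SD, n = 4 each). Il1b, the precursor of interleukin 1 beta, rose by 9.11 ± 0.63 (10.60 in replicates 1 and 7.61 in replicates 2). Il1a, which encodes interleukin 1 alpha, rose by 10.27 ± 0.29. Tnf, the tumour necrosis factor gene, stood at 8.16 and 8.06 in KO cells and 7.96 and 7.48 in WT cells at 6 h, against 0.21 and 4.71 in KO cells and 0.16 and 4.56 in WT cells at 0 h. The groups did not overlap, but the 0 h level was far higher in replicates 2 than in replicates 1. Tnf rose by 5.50 ± 0.96 (adjusted p = 0.00313), by 7.87 in replicates 1 and by 3.13 in replicates 2. Il10, an anti-inflammatory cytokine, rose by 3.58 ± 0.60 (adjusted p = 0.00256), with 5.03 in replicates 1 and 2.12 in replicates 2, and its 6 h and 0 h arrays overlapped.

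The cytokine genes that fell were growth factors and a few others. Vegfa, the angiogenic growth factor, fell by 3.92 ± 0.50 (-2.77 in replicates 1 and -5.08 in replicates 2), Il16 by 3.21 ± 0.30 and Pdgfa, a platelet-derived growth factor chain, by 1.94 ± 0.17. Of 26 chemokines tested, 18 rose and 1 fell, with a median change of 3.97. Ccl5, which recruits T cells and monocytes, rose by 9.35 ± 0.76 (7.47 in replicates 1 and 11.22 in replicates 2), and Ccl22, a ligand of Ccr4, was at least 62.2-fold higher. Cxcl10, like Cxcl9 a ligand of Cxcr3, rose by 7.74 ± 0.35 (adjusted p = 1.25e-05). Its rise was 8.53 in replicates 1 and 6.94 in replicates 2. The neutrophil chemokines Cxcl1 and Cxcl2 were not called (adjusted p = 0.349 for Cxcl1 and 0.15 for Cxcl2). Cxcl1 changed by 5.87 in replicates 1 and -2.13 in replicates 2, and Cxcl2 by 7.01 in replicates 1 and -0.96 in replicates 2. For 12 of the 26 chemokines the change itself differed between the replicate numbers, by the test described further on.

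Receptors for attractants moved in both directions. Of 20 such receptors tested, 10 rose and 5 fell, with a median change of 1.06. Fpr1 and Fpr2, which sense formylated bacterial peptides, rose by 8.63 ± 0.42 and 9.39 ± 0.32, and Ccrl2, an atypical receptor, by 5.10 ± 0.47 (6.22 in replicates 1 and 3.98 in replicates 2). In replicates 1 and 2 the rises were 7.67 and 9.58 for Fpr1 and 8.66 and 10.12 for Fpr2. Ccr7, the receptor that guides cells to lymph nodes, was at least 10.3-fold higher. Cxcr4, the receptor for the marrow chemokine Cxcl12, was among the largest falls of all genes. Its level was -4.55 and -5.54 in KO cells and -4.29 and -5.04 in WT cells at 6 h, against 2.67 and 1.22 in KO cells and 2.52 and 1.04 in WT cells at 0 h. All 4 arrays at 6 h lay below all 4 at 0 h, and Cxcr4 fell by 6.72 ± 0.19 (adjusted p = 4.41e-06). S1pr1, the receptor for sphingosine 1-phosphate that guides egress from tissues, fell by 4.96 ± 0.18, and C5ar2, one of the receptors for complement C5a, by 2.50 ± 0.17.

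Interferon-stimulated genes moved as a block: all 55 of the list that were tested rose, where 30.3% of all genes tested did. Their median change was 5.36, against 0.04 over all genes, and the smallest was 0.89. This list was chosen with earlier results of these data known, so its count is a description and no test. Gbp6, a guanylate-binding GTPase, rose by 10.52 ± 0.58, and was well above background on 1 of the 4 arrays at 0 h. Oasl1, of the oligoadenylate synthetase family, rose by 9.36 ± 0.31, Slfn4, a Schlafen protein, by 9.35 ± 0.15, Gbp5 by 9.35 ± 0.21 and the ubiquitin-like Isg15 by 7.76 ± 0.27. Among the factors and receptors of this pathway 19 of 23 rose and 4 fell, with a median of 1.44. Irf7, which amplifies interferon production, rose by 6.98 ± 0.33, the kinase Jak2 by 5.26 ± 0.12, Stat2 by 4.28 ± 0.18 and Irf1 by 3.56 ± 0.14. Ifngr1, a chain of the interferon gamma receptor, fell by 0.96 ± 0.13.

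Promoter sequences were read from RefSeq (GRCm38.p6), as the 250 bases before the annotated start of a gene, for the 11199 tested genes that the promoter table matched by symbol. An interferon response motif was searched on both strands as GAAA, any 2 bases and GAAA. It was in 20 of 43 promoters (46.5%) of the interferon-stimulated genes, and in 316 of 11199 promoters (2.82%) of all genes tested. Called genes at least 4-fold higher at 6 h held it in 89 of 1007 promoters (8.84%) and those at least 4-fold lower in 15 of 886 promoters (1.69%). An NF-kB motif, searched on both strands as GGGA, any 2 bases and TTCC, was in 4 of 19 promoters (21.1%) of chemokines and 3 of 26 promoters (11.5%) of cytokines, and in 135 of 11199 promoters (1.21%) of all genes tested. It was in 27 of 1007 promoters (2.68%) of the genes at least 4-fold higher and 6 of 886 promoters (0.677%) of those at least 4-fold lower. A match is a description of the letters and not a binding site shown by these data.

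The promoters of 5 induced genes that hold such letters show how the matches lie: the cytokines Il6 and Ifnb1 with the NF-kB motif, the chemokine Cxcl10 and the interferon-stimulated gene Gbp5 with both motifs, and the interferon-stimulated gene Isg15 with the interferon response motif. Each is printed 5′ to 3′ on the gene's own strand, ending at the base before the start, with the matches of both motifs, on either strand, in capitals.
Il6 (chr5:30012864-30013113, plus strand): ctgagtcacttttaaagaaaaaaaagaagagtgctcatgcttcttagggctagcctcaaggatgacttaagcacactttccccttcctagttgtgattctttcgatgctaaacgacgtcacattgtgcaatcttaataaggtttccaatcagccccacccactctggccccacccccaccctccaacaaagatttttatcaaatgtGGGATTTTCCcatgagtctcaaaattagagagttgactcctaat
Ifnb1 (chr4:88522795-88523044, minus strand): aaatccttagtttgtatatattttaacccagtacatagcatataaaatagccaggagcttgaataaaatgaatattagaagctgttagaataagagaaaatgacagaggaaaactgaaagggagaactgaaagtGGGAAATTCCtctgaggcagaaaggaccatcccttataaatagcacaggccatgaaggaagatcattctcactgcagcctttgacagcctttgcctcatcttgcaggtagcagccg
Cxcl10 (chr5:92348890-92349139, minus strand): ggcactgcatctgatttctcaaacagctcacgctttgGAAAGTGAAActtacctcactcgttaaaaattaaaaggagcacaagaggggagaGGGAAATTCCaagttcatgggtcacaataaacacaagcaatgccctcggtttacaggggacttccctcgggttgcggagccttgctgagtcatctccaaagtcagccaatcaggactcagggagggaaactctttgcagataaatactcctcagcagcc
Gbp5 (chr3:142496684-142496933, plus strand): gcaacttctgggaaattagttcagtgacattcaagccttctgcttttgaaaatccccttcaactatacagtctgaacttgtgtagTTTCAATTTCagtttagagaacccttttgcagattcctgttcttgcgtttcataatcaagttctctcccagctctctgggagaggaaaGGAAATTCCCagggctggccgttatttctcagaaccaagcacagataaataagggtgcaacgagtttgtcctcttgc
Isg15 (chr4:156200819-156201068, minus strand): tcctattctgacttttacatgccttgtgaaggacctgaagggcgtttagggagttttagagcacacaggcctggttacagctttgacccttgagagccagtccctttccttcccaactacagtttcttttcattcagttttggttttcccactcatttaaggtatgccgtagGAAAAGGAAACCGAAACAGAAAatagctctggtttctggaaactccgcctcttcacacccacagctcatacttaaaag
In Il6 the NF-kB letters lie 44 to 35 bases before the annotated start, and in Ifnb1 116 to 107 bases before it. In Cxcl10 the interferon response letters lie 213 to 204 bases and the NF-kB letters 159 to 150 bases before the start. In Gbp5 both lie on the opposite strand to the printed one, the interferon response letters 165 to 156 and the NF-kB letters 77 to 68 bases before the start. Isg15 has 3 overlapping matches of the interferon response motif between 78 and 57 bases before the start, printed as 1 stretch of capitals. These genes were at least 13734-fold (Il6) and at least 801-fold (Ifnb1) higher at 6 h, and rose by 7.74 (Cxcl10), 9.35 (Gbp5) and 7.76 (Isg15) on the log2 scale.

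Genes of the sensing pathway moved in both directions. Of 34 Toll-like receptors, adaptors and kinases tested, 19 rose and 7 fell, with a median change of 0.94. Tlr4, the receptor for LPS, was at 1.20 and 1.12 in KO cells and 1.16 and 1.35 in WT cells at 6 h, against 1.43 and 1.69 in KO cells and 1.58 and 1.76 in WT cells at 0 h; it fell by 0.41 ± 0.11 (adjusted p = 0.0196), and the call was lost under alternatives given in the closing section. Cd14, which hands LPS to Tlr4, rose by 2.33 ± 0.16, with means of 8.29 ± 0.18 at 6 h and 5.96 ± 0.37 at 0 h (SD, n = 4 each). The adaptor Myd88 rose by 3.33 ± 0.14, the kinase Irak2 by 3.47 ± 0.20, Tlr6 by 3.16 ± 0.11 and Tlr3, the sensor of double-stranded RNA, by 4.69 ± 0.25. Irak4 fell by 1.0 ± 0.10, the kinase adaptor Tab1 by 0.99 ± 0.17 and Sigirr, an inhibitory receptor of the family, by 2.13 ± 0.20.

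NF-kB subunits, their inhibitors and adaptors mostly rose: 23 of 26 rose and 0 fell, with a median of 2.94. The 3 that were not called were Ikbkg, Otud7b and Nfkbid, and the change of Nfkbid was -1.13, which passed as lower under some alternatives given in the closing section. Traf1, an adaptor of TNF receptors, rose by 8.21 ± 0.28 and Tnip3, a partner of the inhibitor Tnfaip3, by 6.37 ± 0.14. The inhibitors Nfkbie and Nfkbia rose by 4.55 ± 0.15 and 3.01 ± 0.42, and the nuclear inhibitor-like protein Nfkbiz by 4.53 ± 0.79. For Nfkbiz and Nfkbia the rise was larger in replicates 1, at 6.47 for Nfkbiz and 4.03 for Nfkbia, than in replicates 2, at 2.59 and 1.99. Of 35 SOCS proteins, MAP kinase phosphatases, mRNA decay factors and other brakes tested, 19 rose and 9 fell, with a median change of 0.70 (0.35 after quantile normalization). The cytokine signalling suppressors Socs1 and Socs3 rose by 7.47 ± 0.13 and 6.79 ± 1.18 (9.72 in replicates 1 and 3.86 in replicates 2), the phosphatase Dusp2 by 4.97 ± 0.61 (6.43 in replicates 1 and 3.50 in replicates 2), and Arid5a, which stabilises Il6 mRNA, by 4.57 ± 0.17. The mRNA decay factor Zfp36l1 fell by 4.84 ± 0.14 and its relative Zfp36l2 by 2.39 ± 0.24, and Inpp5d, the lipid phosphatase SHIP1 and a known target of miR-155, by 3.03 ± 0.20. Inpp5d changed by -2.85 in KO cells and -3.21 in WT cells, and the difference was not called.

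Transcription factors and other products of primary response genes moved in both directions. Primary response genes need no new protein to be induced, which was not tested here for any member of the list. Of 37 such genes tested, 19 rose and 9 fell, with a median change of 0.42 (-0.0037 after quantile normalization). The AP-1 family members Batf2 and Batf rose by 5.62 ± 0.28 and 5.42 ± 0.15, and the zinc finger factors Hivep2 and Hivep1 by 3.14 ± 0.13 and 2.69 ± 0.16. The nuclear receptor Nr4a1 fell by 3.75 ± 0.53, Klf10 by 3.42 ± 0.26, Bhlhe40 by 3.73 ± 0.32 and Fos, the AP-1 subunit, by 2.78 ± 0.59. For Fos the change was -1.35 in replicates 1 and -4.22 in replicates 2. Fosb and Egr1 were not called (adjusted p = 0.0678 for Fosb and 0.0534 for Egr1), with changes of -0.07 and -0.29 in replicates 1 and -7.01 and -3.25 in replicates 2. Myc, which drives growth and division, stood at -1.07 and 0.77 in KO cells and -1.21 and 0.45 in WT cells at 6 h, against -0.36 and 2.0 in KO cells and -0.14 and 2.19 in WT cells at 0 h. The 6 h and 0 h arrays overlapped, and within each replicate number Myc was lower at 6 h, by a change of -0.88 in replicates 1 and -1.48 in replicates 2 (pooled -1.18 ± 0.18, adjusted p = 0.00174).

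Of 39 transcription factors of the macrophage lineage tested, 15 rose and 12 fell, with a median change of 0.04; the sign of this median changed with the scaling (-0.20 after quantile normalization). Cebpa, which drives the myeloid lineage and restrains division, had the largest fall of the list. Its level was -1.77 and -3.91 in KO cells and -2.33 and -4.01 in WT cells at 6 h, against 3.81 and 2.27 in KO cells and 3.60 and 2.07 in WT cells at 0 h. The groups did not overlap, and Cebpa fell by 5.95 ± 0.14 (adjusted p = 3.49e-06). Its relative Cebpd, an inflammatory factor, rose by 3.37 ± 0.19. Spi1, which encodes PU.1, rose by 2.24 ± 0.16 and the oxysterol receptor Nr1h3 by 2.84 ± 0.29. Gfi1, a transcriptional repressor active in the granulocyte lineage, was at least 226-fold higher. Rxra, the shared partner of nuclear receptors, fell by 3.76 ± 0.10, Fli1 by 3.01 ± 0.30, and Bach2 was at least 10.4-fold lower. Csf1r, the receptor for M-CSF, was at 6.83 and 6.36 in KO cells and 6.70 and 5.97 in WT cells at 6 h, against 7.35 and 6.63 in KO cells and 7.25 and 6.44 in WT cells at 0 h; it fell by 0.46 ± 0.11 (adjusted p = 0.0138), its 6 h and 0 h arrays overlapped, and its call too was lost under some alternatives.

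Of 36 enzymes that make small-molecule effectors tested, 20 rose and 7 fell, with a median change of 1.42 (0.85 after normexp). Besides Acod1 and Nos2, the largest rises were in Hdc, which makes histamine and rose by 10.71 ± 0.41, and in Ptgs2, the inducible cyclooxygenase, which rose by 10.60 ± 0.83 and was well above background on 3 of the 4 arrays at 0 h. The constitutive cyclooxygenase Ptgs1 fell by 2.11 ± 0.23, the prostaglandin-degrading enzyme Hpgd by 2.48 ± 0.38, and Alox5, the first enzyme of leukotriene synthesis, by 1.79 ± 0.36. The cyclooxygenases moved in opposite directions in the same samples. Of 30 antigen presentation and co-stimulation genes, 27 rose and 0 fell, with a median change of 2.93. Cd40, which receives help from T cells, rose by 8.46 ± 0.16, Cd274, the ligand of the inhibitory receptor PD-1, by 6.65 ± 0.21, and the adhesion receptor Slamf1 by 6.05 ± 0.34. The proteasome family had 36 of 49 genes higher and 4 lower, with a median of 0.63 (0.18 after quantile normalization). Its largest rises were the 3 subunits of the immunoproteasome, Psmb9 by 3.23 ± 0.14, Psmb8 by 3.11 ± 0.16 and Psmb10 by 2.90 ± 0.14. The family was chosen by name, so it can hold genes that are not subunits, and its lower members included Psmc3ip and Psmg1.

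Of 40 receptors for uptake and recognition tested, 21 rose and 8 fell, with a median change of 0.96 (0.41 after quantile normalization). Clec4e, the C-type lectin Mincle, rose by 7.77 ± 0.15, the scavenger receptor Marco by 6.71 ± 0.51 and the integrin chain Itgal by 4.91 ± 0.96 (2.54 in replicates 1 and 7.29 in replicates 2), and the oxidised-LDL receptor Olr1 was at least 70.6-fold higher. The haemoglobin scavenger receptor Cd163 fell by 3.91 ± 0.62 (-2.46 in replicates 1 and -5.35 in replicates 2), Stab1 by 2.17 ± 0.45 (-1.10 in replicates 1 and -3.24 in replicates 2), the mannose receptor Mrc1 by 1.98 ± 0.26, and Gas6, which bridges dying cells to Mertk, by 2.09 ± 0.21. Of 45 adhesion molecules, matrix proteases and protease inhibitors tested, 25 rose and 7 fell, with a median change of 1.49 (0.77 after quantile normalization). The membrane metalloprotease Mmp14 rose by 7.74 ± 0.83 (5.70 in replicates 1 and 9.79 in replicates 2), while the plasminogen activator Plau fell by 3.35 ± 0.37 (-2.47 in replicates 1 and -4.23 in replicates 2). Of 37 complement and acute-phase genes tested, 25 rose and 4 fell, with a median change of 1.17. Beside Saa3 and Cfb, Saa1 rose by 8.12 ± 0.21 and C3, the central complement component, by 7.88 ± 0.33, and Slc40a1, the iron exporter ferroportin, fell by 5.95 ± 0.50 and the transferrin receptor Tfrc by 1.51 ± 0.17.

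Of 35 regulators of cell death and survival tested, 21 rose and 8 fell, with a median change of 1.22 (0.72 after quantile normalization). Ripk2, the kinase of Nod receptors, rose by 5.30 ± 0.19, the inflammatory caspase Casp4 by 4.35 ± 0.15, Mlkl, which carries out necroptosis, by 4.21 ± 0.11, and the caspase 8 inhibitor Cflar by 4.04 ± 0.17. Bmf, a pro-apoptotic BH3 protein, fell by 5.91 ± 0.28 (1 of 4 arrays at 6 h well above background) and Casp9 by 1.35 ± 0.13. Of 27 interleukin receptor genes tested, 17 rose and 4 fell, with a median change of 0.77. Il15ra rose by 6.51 ± 0.21 and Il12rb1 by 5.71 ± 0.23, and Il23r was at least 16.6-fold higher. Il6ra, the receptor chain for interleukin 6, fell by 2.17 ± 0.19, in samples whose Il6 was at least 13734-fold higher.

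**Figure D3:**
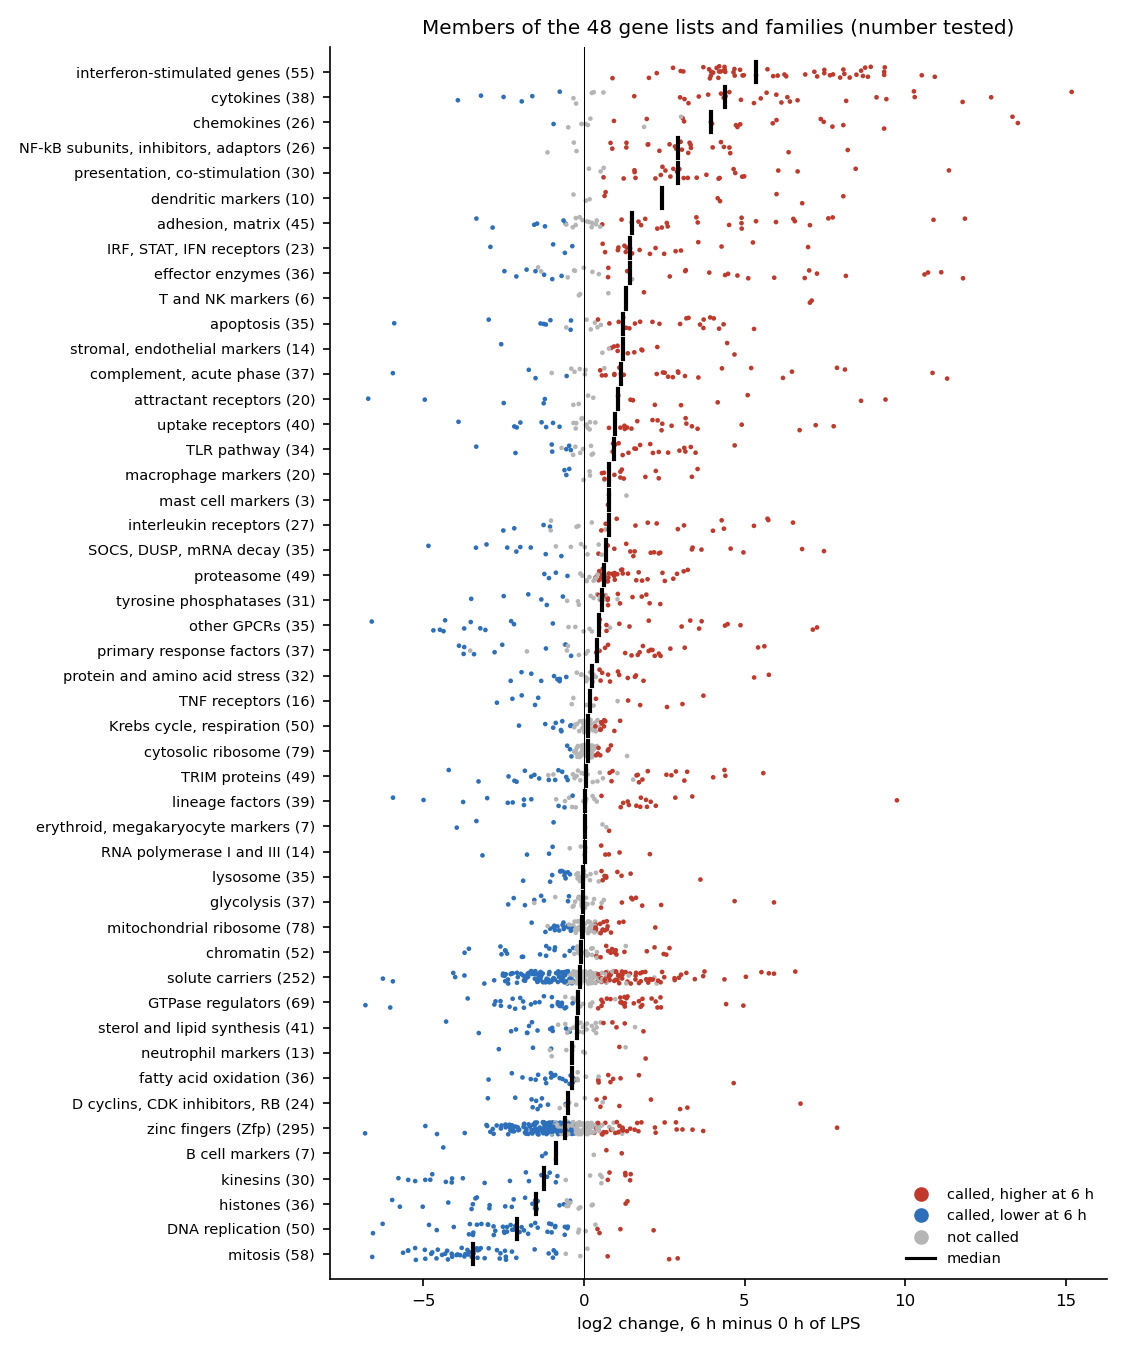
Log2 change at 6 h of LPS of every tested member of 48 gene lists and families, ordered by median from the lowest at the bottom to the highest at the top, with the number tested in brackets. Red points were called higher at 6 h, blue points called lower and grey points not called, and black bars are medians; interferon-stimulated genes have the highest median at 5.36 and genes of mitosis the lowest at -3.44.

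The largest falls were smaller on the log2 scale than the largest rises, between -6.03 and -6.93 for the 15 largest. The size of a fall that ends at background, as of a rise that starts there, is limited by it. Among these 15, Aph1c, E2f7 and Depdc1b were well above background on 0 of the 4 arrays at 6 h. Fam214a stood at -6.01 and -5.95 in KO cells and -5.86 and -5.89 in WT cells at 6 h, against 0.80 and 1.21 in KO cells and 1.06 and 0.95 in WT cells at 0 h. It fell by 6.93 ± 0.13 (adjusted p = 2.22e-06), with 1 of the 4 arrays at 6 h well above background. Slc26a11, an anion transporter, was measured well above background on all 8 arrays, at -2.25 and -2.15 in KO cells and -1.98 and -2.19 in WT cells at 6 h, against 4.04 and 4.25 in KO cells and 3.91 and 4.27 in WT cells at 0 h. It fell by 6.26 ± 0.13 (adjusted p = 3.18e-06), and no array of one time came near those of the other. Plekhg3, a GTPase exchange factor, fell by 6.80 ± 0.25, Zfyve28 by 6.70 ± 0.62 (1 of 4 arrays at 6 h well above background) and Rasgrp3, a Ras and Rap exchange factor, by 6.03 ± 0.13. Zfp395 was at least 38.9-fold lower, Aph1c, a gamma-secretase subunit, at least 41.1-fold and the T-box factor gene Tbx6 at least 32.3-fold.

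Receptors coupled to G proteins, other than those for attractants, were split. Of 35 such receptors tested, 15 rose and 12 fell, with a median change of 0.48 (0.24 after quantile normalization). Cnr2, the cannabinoid receptor of immune cells, fell by 6.61 ± 0.40, the lysophosphatidic acid receptor Lpar6 by 4.69 ± 0.16 and Gpr34 by 4.37 ± 0.23. Gpr84, a receptor for medium-chain fatty acids, rose by 7.26 ± 0.33, Lpar1, another lysophosphatidic acid receptor, by 7.13 ± 0.26, and the adenosine receptor Adora2b by 4.87 ± 0.18. Regulators of small GTPases were also split, with 27 of 69 higher and 28 lower. Beside Plekhg3 and Rasgrp3, Arhgap18 fell by 3.62 ± 0.17, while the GTPases Rnd3 and Rnd1 rose by 4.96 ± 0.17 and 4.43 ± 0.20.

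Genes of the cell cycle fell together. Of 58 genes of mitotic kinases, kinesins and kinetochore proteins tested, 52 fell and 3 rose, with a median of -3.44 (-3.39 with bounded genes at their bound and -2.12 after normexp), where 30.9% of all genes tested fell. Cdc20, which activates the anaphase-promoting complex, stood at -1.77 and -2.55 in KO cells and -1.91 and -2.40 in WT cells at 6 h, against 3.31 and 2.84 in KO cells and 3.21 and 2.95 in WT cells at 0 h. The groups did not overlap, and Cdc20 fell by 5.23 ± 0.12 (adjusted p = 3.49e-06). The phosphatase Cdc25b, which starts mitosis, fell by 5.48 ± 0.12, the kinetochore gene Cenpf fell by 6.59 ± 0.45, the centrosomal kinase Nek2 fell by 5.63 ± 0.69 (-3.97 in replicates 1 and -7.29 in replicates 2, 1 of 4 arrays at 6 h well above background) and Kif23, a kinesin of cytokinesis, fell by 5.47 ± 0.27. For Cenpf the change was -5.53 in replicates 1 and -7.65 in replicates 2. Cdk1, the kinase of mitotic entry, fell by 2.62 ± 0.12, and Mki67, the proliferation marker, by 0.86 ± 0.15. The 3 that rose were Pttg1, the securin that holds back chromatid separation, by 2.92 ± 0.14, Tpx2, a spindle factor, by 2.65 ± 0.31, and the checkpoint kinase Bub1 by 0.74 ± 0.21, with overlapping 6 h and 0 h arrays for Bub1. The probes of Bub1 disagreed: the mean of its detected probes fell by 1.42 (adjusted p = 0.000447). Also among the largest falls outside the list, Pimreg fell by 6.19 ± 0.16, and Depdc1b was at least 34.6-fold lower.

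Of 50 genes of DNA replication and nucleotide synthesis, 42 fell and 4 rose, with a median of -2.07. E2f2, an activator of S-phase genes, stood at -4.60 and -5.41 in KO cells and -4.14 and -4.51 in WT cells at 6 h, against 2.47 and 1.30 in KO cells and 2.22 and 1.61 in WT cells at 0 h. All 4 arrays at 6 h lay below those at 0 h, and E2f2 fell by 6.57 ± 0.20 (adjusted p = 5.22e-06); the repressor E2f7 was at least 20.7-fold lower. Rrm2, the regulated subunit of ribonucleotide reductase, fell by 4.82 ± 0.19, and Pole2, of DNA polymerase epsilon, by 4.58 ± 0.22 (1 of 4 arrays at 6 h well above background). Rfc3, of the clamp loader, rose by 2.17 ± 0.15. Among D cyclins, their kinases, CDK inhibitors and the RB family, 8 of 24 rose and 10 fell. Ccnd2 rose by 6.74 ± 0.21, the inhibitor Cdkn1a by 2.99 ± 0.15 and the RB relative Rbl1 by 3.22 ± 0.12, while the inhibitors Cdkn1b and Cdkn2c fell by 1.60 ± 0.16 and 2.99 ± 0.17.

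Histone genes fell in most cases: 25 of 36 fell and 2 rose, with a median of -1.51. The linker histones H1f5 and H1f3 fell by 5.73 ± 0.19 and 5.02 ± 0.20, and H2bc23 was at least 16-fold lower. Probes of near-identical histone genes can share sequence, so single members are uncertain, and the family as chosen by name also holds histone variants that are not tied to replication. Kinesins had 19 of 30 lower and 6 higher; the mitotic Kif14 fell by 5.78 ± 0.61 (1 of 4 arrays at 6 h well above background) and Kif18b was at least 15.1-fold lower, while Kif5b and Kif5c, which carry cargo, rose by 1.29 ± 0.13 and 1.44 ± 0.12.

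Letters found in promoters of mitotic genes were counted in the same 250-base windows. CCAAT, on both strands, was in 35 of 48 promoters (72.9%) of the mitotic list and in 4090 of 11199 promoters (36.5%) of all genes tested. TTTGAA, the core of the cell cycle homology region, was in 16 of 48 promoters (33.3%) of the mitotic list and 1260 of 11199 promoters (11.3%) of all genes tested, but also in 13 of 43 promoters (30.2%) of the interferon-stimulated genes. The E2F letters TTTCCCGC were in 4 of 40 promoters (10%) of the replication list and 188 of 11199 promoters (1.68%) of all genes tested. Genes at least 4-fold lower at 6 h held CCAAT in 377 of 886 promoters (42.6%) and those at least 4-fold higher in 335 of 1007 promoters (33.3%). The promoters of Cdc20 and Cdk1 are shown as examples with both, with CCAAT on either strand (ATTGG on the printed one) and TTTGAA in capitals.
Cdc20 (chr4:118437344-118437593, minus strand): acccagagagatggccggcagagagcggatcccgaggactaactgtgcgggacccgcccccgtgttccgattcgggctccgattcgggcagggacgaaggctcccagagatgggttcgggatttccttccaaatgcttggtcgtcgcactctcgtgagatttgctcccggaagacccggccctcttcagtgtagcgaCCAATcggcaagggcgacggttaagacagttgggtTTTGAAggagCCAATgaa
Cdk1 (chr10:69352913-69353162, minus strand): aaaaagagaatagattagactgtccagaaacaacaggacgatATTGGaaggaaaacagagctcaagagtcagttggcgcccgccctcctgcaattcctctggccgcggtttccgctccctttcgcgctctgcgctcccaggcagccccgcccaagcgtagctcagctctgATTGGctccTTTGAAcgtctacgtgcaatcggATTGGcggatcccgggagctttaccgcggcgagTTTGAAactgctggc
In Cdc20 the letters CCAAT lie 53 to 49 and 8 to 4 bases before the annotated start and TTTGAA 18 to 13 bases before it. Cdk1 has 3 matches of CCAAT and 2 of TTTGAA in the window.

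Among enzymes that modify histones and DNA, 15 of 52 rose and 18 fell, against 30.3% and 30.9% of all genes. The deacetylase Hdac5 fell by 3.72 ± 0.18, the methyltransferase Setd7 by 3.58 ± 0.16 and the demethylase Kdm2b by 2.60 ± 0.14; Setdb2 rose by 2.66 ± 0.16, the demethylase Kdm4a by 2.56 ± 0.26 and Tet2, which oxidises methylcytosine, by 2.48 ± 0.18. Zinc finger genes named Zfp formed the largest family with a one-sided count, 159 of 295 lower and 35 higher, with a median of -0.58. The family median was below 0 in every alternative run, between -0.79 and -0.15. Zfp704 fell by 4.94 ± 0.21 and Zfp667 was at least 5.43-fold lower, whereas Zfp811 was at least 106-fold higher and Zfp800 rose by 3.71 ± 0.27. Of 49 tripartite motif proteins 17 rose (34.7%) and 15 fell (30.6%), near the shares of all genes. Trim30b was higher by 5.58 ± 0.16, Trim21, a cytosolic antibody receptor, by 4.38 ± 0.15, and Trim16 lower by a change of -4.21 ± 0.27. Protein tyrosine phosphatases had 14 of 31 higher and 6 lower.

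Genes of metabolism were mixed within each pathway. Glycolysis, the pentose phosphate pathway and the response to hypoxia had 9 of 37 genes higher (24.3%) and 8 lower (21.6%). Over all genes tested the shares were larger, at 30.3% and 30.9%. The glucose transporter genes Slc2a6 and Slc2a1 rose by 5.92 ± 0.14 and 1.81 ± 0.29 and Pfkfb3, which speeds up glycolysis, by 4.69 ± 0.15, whereas Pfkfb4, of the same family, fell by 2.19 ± 0.12. Of 50 genes of the Krebs cycle and respiratory chain, 10 rose (20%) and 9 fell (18%), also under the shares of all genes. Idh1, the cytosolic isocitrate dehydrogenase, fell by 2.02 ± 0.13 and fumarase, Fh1, by 1.20 ± 0.14. In both lists the sign of the median changed with the scaling. It was -0.04 for glycolysis and 0.08 after scaling to the median. For the Krebs cycle it was 0.12 and -0.49 after quantile normalization. Fatty acid oxidation and the peroxisome had 21 of 36 genes lower and 8 higher, with a median of -0.38 (-0.83 after quantile normalization) that was below 0 under each scaling. The acyl-CoA synthetase Acsl3 fell by 2.97 ± 0.23, while its relative Acsl1 rose by 4.66 ± 0.14. Of 41 genes of cholesterol and fatty acid synthesis and lipid efflux, 5 rose and 14 fell, and for 17 the change differed between replicate numbers; the desaturase Scd2 fell by 4.29 ± 0.29, and the cholesterol synthesis enzyme Dhcr7 by 2.27 ± 0.12. Among solute carriers 67 of 252 rose (26.6%) and 92 fell (36.5%), not far from the shares of all genes. Their median was -0.125, and 0.125 after normexp. The arginine transporter Slc7a2 was higher by 6.58 ± 0.27 and the cystine transporter Slc7a11 by 5.76 ± 0.24.

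Housekeeping families moved little. Cytosolic ribosomal proteins had 7 of 79 genes higher and 3 lower, well under the shares of all genes, with a median of 0.12. Mitochondrial ribosomal proteins had 17 of 78 higher and 17 lower. The sign of the median flipped with the scaling in both families, to -0.58 for cytosolic ribosomal proteins after quantile normalization and to 0.07 for mitochondrial ones after scaling to the median. It also flipped for the lysosome list (-0.03, and -0.69 after quantile normalization against 0.09 after scaling to the median). Single lysosomal genes still moved clearly, with the protease Ctsc higher by 3.63 ± 0.14 and Atp6v0d2, a proton pump subunit, lower by a change of -1.89 ± 0.22. Among genes of protein and amino acid stress, Nupr1 rose by 5.30 ± 0.21 and Sesn2 fell by 2.28 ± 0.30 (-2.98 in replicates 1 and -1.58 in replicates 2).

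Some markers of other cell types moved as well, and their part in the results was not tested. Of 10 dendritic cell markers tested of 14 listed, 7 rose and 0 fell; Fscn1 rose by 6.80 ± 0.39, Ccl17 by 6.0 ± 0.20 and Zbtb46 by 4.24 ± 0.38, while Cd209a, Clec9a and Siglech were not detected. Of 6 T and NK cell markers tested of 16 listed, 3 rose. The kinase Lck rose by 7.09 ± 0.26 and Cd247 was at least 44-fold higher, while Cd8a, Zap70 and Prf1 were not detected. Cd247 and the dendritic marker Ccl22 were well above background on 0 of the 4 arrays at 0 h. They were thus tested only because they were high at 6 h, and that filter fixed the direction of their change, though the counts include them. Of 14 stromal and endothelial markers tested of 19, 11 rose and 1 fell, with Pdgfrb higher by 4.69 ± 0.18 and Vwf lower by a change of -2.58 ± 0.33 (-1.84 in replicates 1 and -3.31 in replicates 2). Neutrophil markers had 2 of 13 higher and 3 lower, B cell markers 2 of 7 higher and 3 lower, with Ighm, the heavy chain of IgM, lower by a change of -4.38 ± 1.05 (-1.82 in replicates 1 and -6.94 in replicates 2). Of the erythroid and megakaryocyte markers 1 of 7 rose and 3 fell, and of the mast cell markers 2 of 3 rose. The macrophage markers had 13 of 20 higher (65%) and 3 lower (15%), where 30.3% and 30.9% of all genes tested were. Msr1, a scavenger receptor, rose by 3.54 ± 0.15 and the IgG receptor Fcgr1 by 3.36 ± 0.27. Csf1r was among the 3 that fell, by 0.46 ± 0.11, a call lost under some alternatives.

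Pooling the genotypes assumes that KO and WT cells share a response, and this was tested gene by gene. The KO response minus the WT response passed the threshold for 0 of 17417 genes (0%) by limma, and 307 genes (1.76%) had an unadjusted p under 0.05. The count was also 0 without the replicate term, with all 16 arrays, after quantile normalization and with any single array left out. All 10667 called genes had the same sign in KO and in WT cells, which the call itself favours, since each genotype gives 2 of the 4 arrays a side. Acod1 and Cebpa were well above background on all 8 arrays. Acod1 changed by 11.93 in KO and 11.67 in WT cells, and Cebpa by -5.88 in KO and -6.01 in WT. The standard error of the difference was 0.91 for Acod1 and 0.32 for Cebpa, so differences of that size would not have been detected with 2 arrays a group, and a difference that misses the threshold does not show equal responses. Over all genes the KO change correlated with the WT change at r = 0.964 with a slope of 0.961, a description across genes, which are not independent replicates.

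**Figure D4:**
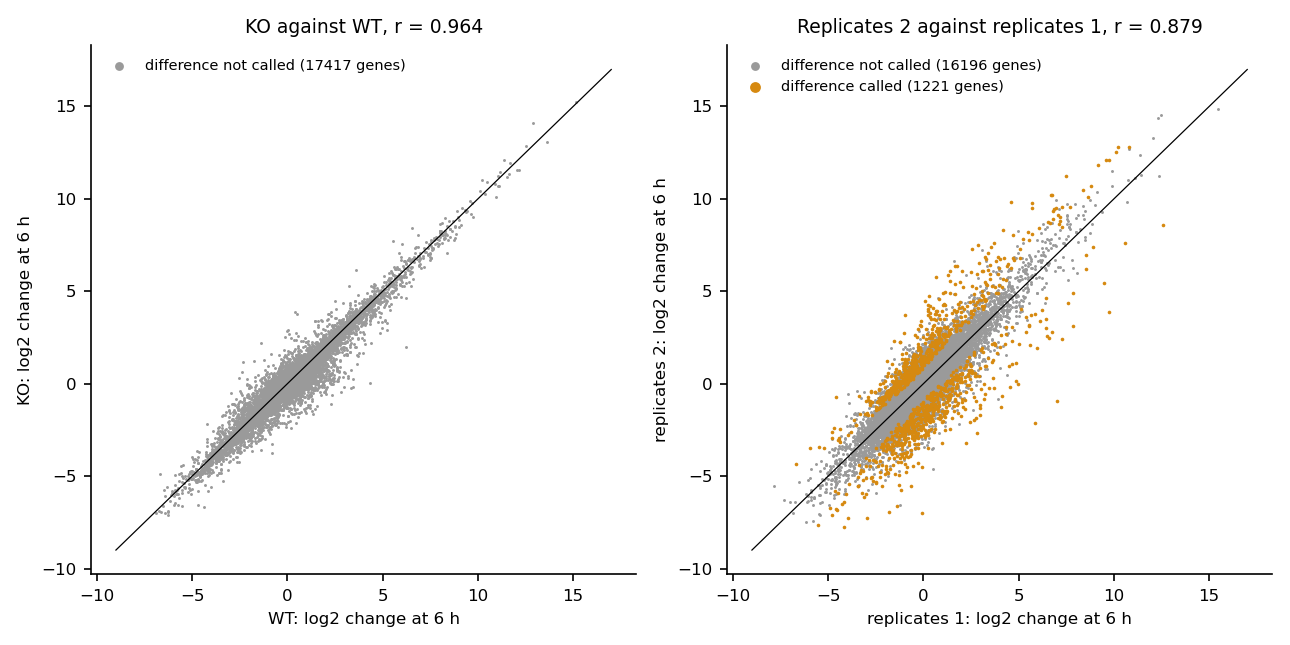
Log2 change at 6 h of LPS in KO cells against WT cells (left) and in replicates 2 against replicates 1 (right), 1 point per gene over 17417 genes, with the line of equality. Orange points are the 1221 genes whose change differed between the replicate numbers at an adjusted p under 0.05; no gene passed for KO against WT.

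The replicate numbers did differ in their response, by a test added after the data were seen. A term for time by replicate number passed for 1221 genes (7.01%), and 4919 (28.2%) had an unadjusted p under 0.05. For 700 of the 1221 the replicates lay further apart at 0 h than at 6 h, with 318 of these higher and 382 lower at 0 h in replicates 2, and for 521 they lay further apart at 6 h. The change had opposite signs in the 2 replicate numbers for 418 of the 1221, and all 10667 genes called in the pooled fit had the same sign in both, which the call again favours, since each replicate number gives 2 of the 4 arrays a side. Tnf and Cxcl2 are examples of a higher 0 h level in replicates 2. Cxcl2 stood at 4.41 and 2.82 in KO cells and 2.96 and 2.01 in WT cells at 6 h, against -3.25 and 3.41 in KO cells and -3.41 and 3.35 in WT cells at 0 h, and its KO and WT arrays split by replicate number and not by genotype at 0 h. Replicates 1 and 2 differ in scan session and share no slide, so their biological and technical differences cannot be told apart. The replicate term removes a constant difference between the replicate numbers but not one that is present at 0 h alone, and the changes of such genes are averages of unlike values. The split by replicate number is printed beside only some of the 1221 genes. The change also differed for Bhlhe40, C3, Cfb, Gbp4, Gbp6, H2bc23, Ifi205, Il23r and Nfkbid, printed above without a split, and others may be among the rest.

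Slides could be compared within themselves where 1 slide held both times. On slide 1 (KO replicate 1), 10570 of the 10667 called genes changed with the pooled sign, on slide 3 (WT replicate 2) 10626 and on slide 4 (KO replicate 2) 10657. The pooled sign was seen on all 3 for 10519 genes, and the calls were made from a fit that holds these arrays, so this count is a description and no independent check. The WT arrays of replicate 1 lay on different slides.

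Levels at 12 and 24 h, from the other 8 arrays, are set beside those at 0 and 6 h as values without a test. Il6 averaged -7.83 ± 0.36 at 0 h, 7.35 ± 0.30 at 6 h, 4.08 ± 0.58 at 12 h and 1.35 ± 1.50 at 24 h (SD, n = 4 each). Ifnb1 averaged -6.99 at 0 h, 3.31 at 6 h, 0.11 at 12 h and -0.11 at 24 h, so that for both cytokines the 6 h mean was the highest of the 4. Acod1 stayed near its 6 h mean of 9.70, with 9.38 at 12 h and 8.58 at 24 h, and Cxcl9 had 6.83 at 6 h, 6.29 at 12 h and 5.42 at 24 h. Among the falls, Slc26a11 averaged 4.12 at 0 h, -2.14 at 6 h, 0.55 at 12 h and 1.79 at 24 h, and Cebpa 2.94 at 0 h, -3.01 at 6 h, -0.46 at 12 h and 0.12 at 24 h. Both had their lowest mean at 6 h. Cdc20 had 3.08 at 0 h, -2.16 at 6 h, -2.53 at 12 h and -1.65 at 24 h, with its lowest mean at 12 h. All 3 of these genes were below their 0 h mean at each later time.

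**Figure D5:**
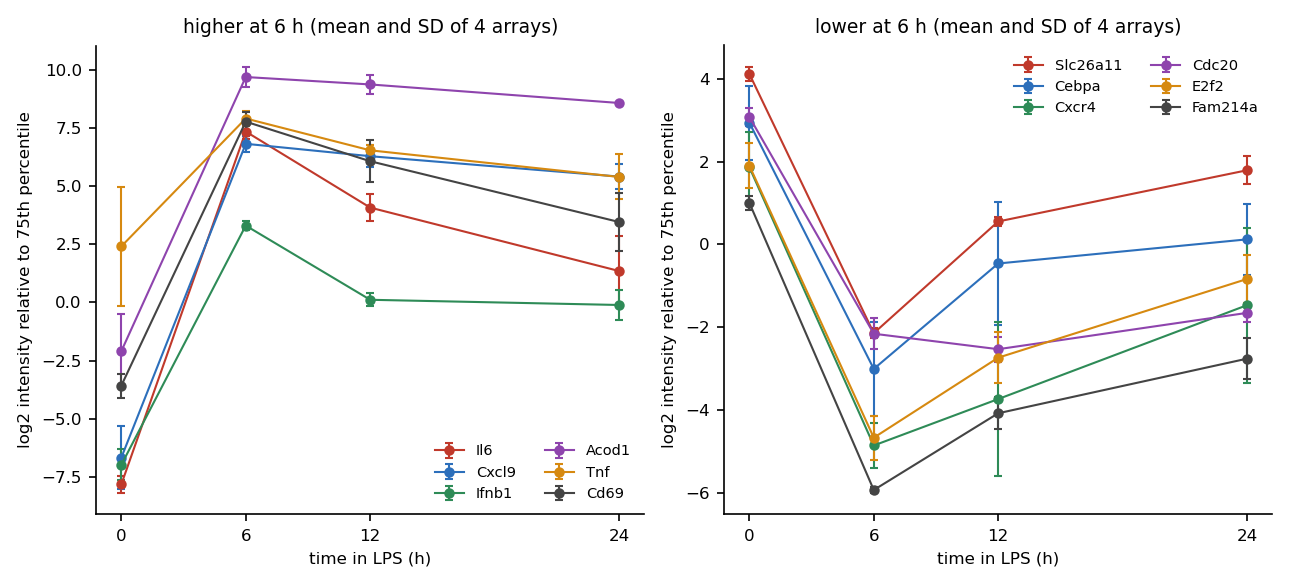
Mean level of 6 genes higher (left) and 6 genes lower (right) at 6 h, as log2 intensity relative to the array's 75th percentile, against time in LPS in hours, with error bars of 1 SD over the 4 arrays of both genotypes. Il6 has its highest mean at 6 h (7.35) and Slc26a11 its lowest (-2.14).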

How the data were processed

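Total RNA, labelled with Cy3, was measured on single-colour Agilent arrays. The authors deposited 1 scanner file per array with a processed intensity for each spot, made with Agilent Feature Extraction 10.5.1.1, which subtracted background, corrected spatial trends and gave dim spots a surrogate value, per the file headers. The deposited series table of log2 values held the log2 of these intensities (r = 1) with each array shifted to a common 75th percentile, and served as an alternative.

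Control spots (1639) and outlier spots (61 to 108 per array) were removed, and log2 intensities were averaged per probe and scaled by subtracting the 75th percentile of each array. All 8 arrays gave a value for 41117 probes, of which 26536 were well above background on both arrays of at least 1 group. They were named through RefSeq by accession, symbol or synonym, or else by the array file, and the brightest detected probe stood for each of 17417 genes. Arrays have no read depth, and precision is limited by their number. limma 3.58.1 in R 4.3.3 was fitted to the 8 arrays with time, genotype and replicate number as terms (4 residual and 2.22 prior degrees of freedom), with p-values adjusted by Benjamini-Hochberg at a threshold of 0.05. The difference in response between genotypes was tested as an interaction (3 residual degrees of freedom).

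The replicate numbers paired the samples: for each of the 6 pairs of groups, what arrays of 1 number deviated by from their group means was correlated (0.454 to 0.840), and the file headers put each number in its own scan session. Alternatives changed the replicate term, scaling, background correction, filter, probe choice, table, arrays fitted and slide term, or left out an array.

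The members of the comparison, the 36 gene lists and 12 families were chosen with earlier results of these data known. Genes were named by a rule: the 15 largest rises and falls and 5 smallest p-values each way among genes with ordinary symbols and non-overlapping arrays, up to 4 (lists) or 3 (families) called members each way, and 15 genes fixed by name. Of the 305 so named the text prints a part, mostly genes that passed in the alternatives. Up to 15 others, such as Cxcl10, Isg15, Gbp5, Cdk1, Cxcl1, Cxcl2, Nfkbia, Mki67 and Bub1, were chosen after their values were seen. Promoters are the RefSeq (GRCm38.p6) table's 250 bases before a start.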

Additional observations from a re-analysis of the deposited data

Results flagged for a closer look

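Among the 4 arrays of a time, 1 array stood apart by Dixon's criterion in 9 of the 420 groups of 4 tested for the printed genes, and chance alone gives about 1 in 20. At 6 h, Irf1 was 7.396 on the first KO array, with 7.745 to 7.813 on the others, and Kdm4a was 4.338 on the first WT array, with 4.818 to 4.914 on the others. Kif18b was -7.468 on the first WT array at 6 h, with -6.964 to -6.882 on the others, all below background. The oxysterol receptor Nr1h3 was 2.614 on the second WT array at 6 h, against 3.506 to 3.584 on the other 3. At 0 h, Cdc25b was 2.999 on the second WT array, with 2.787 to 2.794 on the others, and Kif23 was 1.433 there, with 0.2185 to 0.4221 on the others. On the second KO array at 0 h Cxcl10 was 2.171 (others 1.522 to 1.63), Nfkbie 0.8872 (others 0.4373 to 0.4583) and Kif14 -1.911 (others -1.276 to -1.247). For none of these 9 genes did the 6 h arrays overlap the 0 h arrays.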

How the results depend on the processing

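With no replicate block, 3449 genes were higher at 6 h and 3934 lower, against 5277 and 5390 with the pairing by replicate number. Tlr4, Csf1r, Il10, Myc and Bub1 then lost their call (adjusted p = 0.0789, 0.261, 0.0755, 0.273 and 0.254), and no other printed gene did. Printed genes were mostly ones that had passed in the alternatives, so the choice itself favoured their keeping the call. Without the filter on dim probes 8978 were higher and 5180 lower. At least 2-fold and called were 3169 higher and 3415 lower. Leaving out single arrays gave 4325 to 5284 higher and 4715 to 5119 lower. The difference between genotypes had 0 calls in each alternative run. Tlr4 and Csf1r also missed the threshold with scaling to the median and with the slide as a block, and Csf1r with all 16 arrays fitted. Tlr4 missed it too without KO_06 replicate 2, WT_06 replicate 1, KO_00 replicate 2 or either WT_00 array, and Csf1r without WT_00 replicate 1. Bub1 rose on its brightest probe but its change was -1.423 as the mean of its detected probes, and it lost its call with the slide as a block and without KO_00 replicate 2, WT_06 replicate 2 or either WT_00 array. The cause was not tested. Fosb, Egr1 and Nfkbid were called with normexp, with all 16 arrays and, as were Cxcl1 and Cxcl2, with the added term for time by replicate number. Egr1 was also called with the slide block and without KO_00 replicate 1 or WT_06 replicate 1, Nfkbid without KO_00 replicate 1 and Fosb without WT_00 replicate 1. Of 305 called genes named by the rule, 267 passed in all 18 alternatives with a test, the 2-fold minimum aside. With 2 arrays per group and 4 residual degrees of freedom, small changes were not measurable, and levels below background are only bounded.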
